A study of Vitis vinifera with 27 samples.

Results

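The genes described are the 6 of the plastid methylerythritol phosphate (MEP) pathway that act after its entry enzyme, deoxyxylulose phosphate synthase (DXS), out of 27096 genes with a value in the berry data. They were taken by their symbols as DXR (LOC100248516), MCT (LOC100247263), CMK (LOC100261596), MDS (LOC100250076), HDS (LOC100257071) and HDR (LOC100267479). The KEGG number that the files give to each gene was that of the named enzyme in 6 of 6. The rule that lists them uses no measured value, but it was set with earlier results of these data known. RNA was sequenced from berries of 3 Muscat-flavoured table grapes (Vitis vinifera) at 3 ripening stages, in 27 samples, with 3 replicates in each of the 9 groups. Zaomeiguixiang has purple-red berries and a strong Muscat flavour, Italia has a moderate one, and Xiangfei has green to golden berries and a strong one. EL35, EL36 and EL38 are stages of the Eichhorn-Lorenz scale, with EL35 at the first colouring and softening, EL36 at the end of veraison and EL38 at harvest. All vines grew in 1 vineyard under plastic, and each replicate pooled berries picked at random. In such bulk samples, fewer cells of a type and less RNA per cell cannot be told apart, and neither can cultivar and ripeness at a stage.

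The MEP pathway makes isopentenyl and dimethylallyl diphosphate, the 5-carbon units of monoterpenes, carotenoids and the side chains of chlorophyll, from pyruvate and glyceraldehyde 3-phosphate. In Muscat grapes it is known as the main source of linalool, geraniol and nerol, the monoterpenes of the floral aroma. After DXS, DXR makes methylerythritol phosphate, MCT attaches a cytidyl group, CMK phosphorylates the product, and MDS closes it into a cyclic diphosphate. HDS and HDR, both iron-sulfur enzymes, carry out the last steps. HDS opens this ring by reduction, and HDR reduces the product of HDS and releases both 5-carbon units.

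The 27 libraries held 16908559 to 27186952 expected counts (median 23335793) and 16745 to 21653 genes above 0. The 10 most abundant genes took 7.49% to 28.5% of the counts. The summed level of 23 seed storage protein and oleosin genes was 57388 FPKM in Italia EL35 replicate 3, 25036 in Zaomeiguixiang EL35 replicate 3 and 2228 in Xiangfei EL38 replicate 3, and 174 to 1143 in the other libraries. FPKM is the number of fragments scaled to the length of the transcript and to all fragments assigned in the library. Calls over cultivars or over stages are at an adjusted p of at most 0.05 in edgeR's quasi-likelihood test, fitted to all 27 samples and adjusted over 21152 genes. Calls in comparisons of 2 groups are at the thresholds of the study, an adjusted p of at most 0.001 with an absolute log2 fold change of 1 or more. DXR and CMK were lower at EL38 than at EL35, HDR was higher in Zaomeiguixiang than in both other cultivars, and MCT, MDS and HDS were called in no comparison.

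The 6 genes differed widely in level, and HDR was the highest of them in 25 of 27 samples. Its mean over the 27 samples was 265 FPKM, at the 98.8 percentile of all genes. MDS averaged 71.7 FPKM and HDS 48.7 FPKM, at the 94.2 and 91.6 percentiles. CMK and DXR were nearly level at 21.8 and 21.4 FPKM, at the 83.3 and 83.1 percentiles, and DXR was the higher of the pair in 9 of 27 samples. MCT was the lowest of the 6 in 27 of 27 samples, with a mean of 2.16 FPKM at the 51.7 percentile. The 2 samples in which MDS exceeded HDR were Xiangfei EL36 replicate 3 and Xiangfei EL38 replicate 1. HDR, the last enzyme, exceeded HDS, the one before it, in 27 of 27 samples, by a ratio of 2.63 to 10.4 (median 5.72). The coefficient of variation over the 27 samples was 21.0% for MDS, 31.4% for DXR, 32.3% for CMK, 43.5% for HDS, 52.1% for HDR and 86.6% for MCT. When the 9 group means of a gene were put in order, the replicates of neighbouring groups overlapped in all 8 steps for each of the 6 genes.

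**Figure D1:**
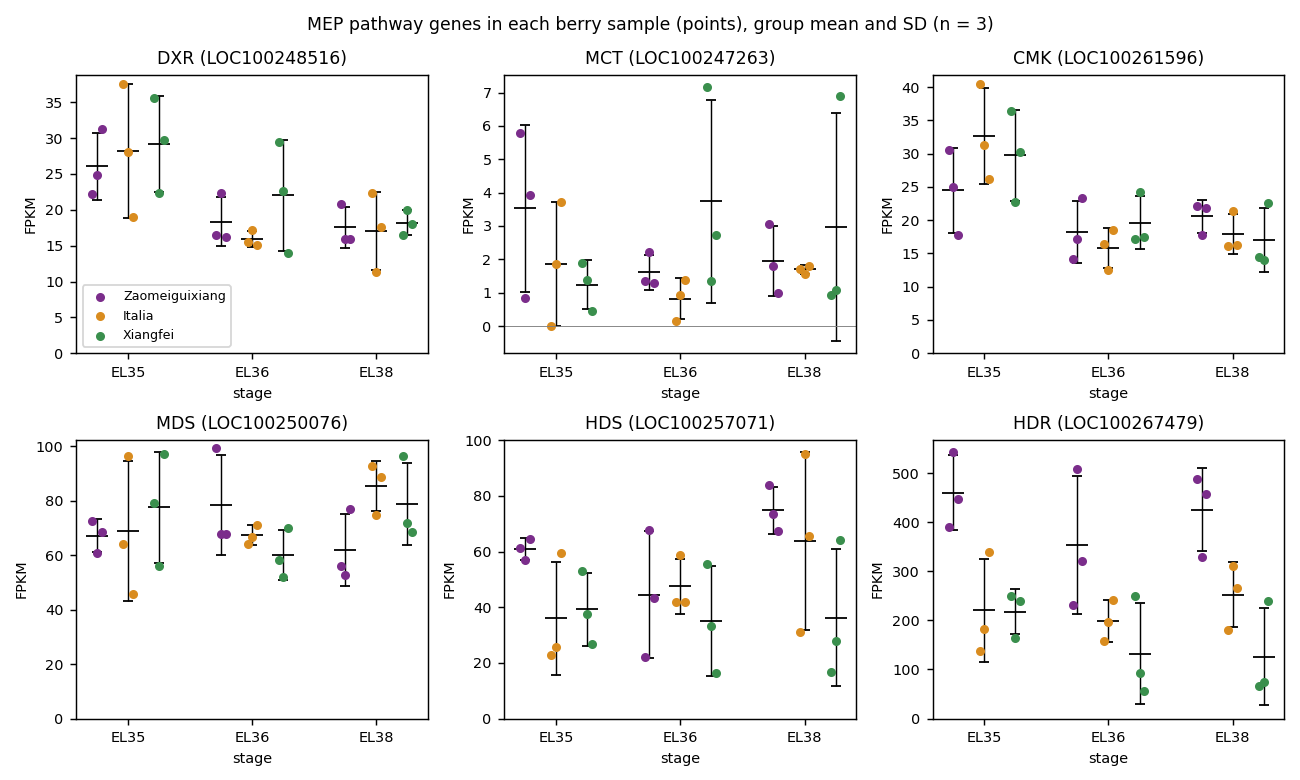
FPKM of the 6 genes in each sample (points), by stage on the x axis and by cultivar in colour, with the mean and SD of the 3 replicates of each group as bars. DXR and CMK stand highest at EL35, and the HDR points of Zaomeiguixiang (231 to 542 FPKM) lie mostly above those of Italia (138 to 339 FPKM) and Xiangfei (56.3 to 250 FPKM).

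DXR, the first enzyme after DXS, was lower at harvest than at the start of colouring. In Zaomeiguixiang it had 22.2, 24.8 and 31.3 FPKM at EL35, 16.5, 22.3 and 16.2 FPKM at EL36, and 20.8, 16.0 and 15.9 FPKM at EL38. The Italia replicates gave 37.6, 28.1 and 19.0 FPKM at EL35, 15.5, 17.2 and 15.1 FPKM at EL36, and 22.3, 11.4 and 17.6 FPKM at EL38. For Xiangfei the values were 35.6, 22.3 and 29.7 FPKM at EL35, 29.5, 22.6 and 14.0 FPKM at EL36, and 16.5, 20.0 and 18.0 FPKM at EL38. All 3 replicates at EL38 were under all 3 at EL35 in Zaomeiguixiang and in Xiangfei, where 10.6% and 10.1% of the genes averaging 1 FPKM or more did so, while in Italia the stages overlapped. In Italia the replicates at EL36 were under those at EL35 instead, as 13.4% of the genes were. Over the cultivars DXR ranged from 11.4 to 22.3 FPKM at EL38 (median 17.6) and from 19.0 to 37.6 FPKM at EL35 (median 28.1), and 6 of the 9 samples at EL38 lay below all 9 at EL35. The fitted log2 fold change of EL38 against EL35 was -0.69 (standard error, SE, 0.20, adjusted p = 0.032 from edgeR), a 0.62-fold level. This call was close to the threshold. The adjusted p was 0.0513 to 0.0833 when 1 of 10 libraries was left out, namely Xiangfei EL35 replicate 3, Xiangfei EL38 replicate 3, Italia EL35 replicate 1 or 2, Italia EL38 replicate 2 or 3, Zaomeiguixiang EL35 replicate 2 or 3, or Zaomeiguixiang EL38 replicate 2 or 3.

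CMK, the kinase of the pathway, showed the same course over the stages. In Italia it had 40.5, 31.3 and 26.2 FPKM at EL35, 16.5, 12.5 and 18.5 FPKM at EL36, and 16.2, 21.3 and 16.3 FPKM at EL38. Xiangfei replicates had 36.4, 22.7 and 30.2 FPKM at EL35, 17.2, 24.3 and 17.5 FPKM at EL36, and 14.5, 14.0 and 22.6 FPKM at EL38. For Zaomeiguixiang the values were 30.6, 25.0 and 17.8 FPKM at EL35, 14.2, 17.1 and 23.3 FPKM at EL36, and 22.2, 17.7 and 21.8 FPKM at EL38. The replicates at EL38 all lay below those at EL35 in Italia and in Xiangfei, where 12.3% and 10.1% of the genes did so, and they overlapped in Zaomeiguixiang. Its range was 14.0 to 22.6 FPKM at EL38 (median 17.7) and 17.8 to 40.5 FPKM at EL35 (median 30.2), and 5 of the 9 samples at EL38 lay below all 9 at EL35. The log2 fold change over the cultivars was -0.71 (SE 0.20, adjusted p = 0.0239 from edgeR), a 0.61-fold level. The CMK call was lost without Italia EL35 replicate 1, the library with the highest CMK level, where the log2 fold change was -0.60 (adjusted p = 0.0605).

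DXR and CMK were thus the 2 of 6 members called for EL38 against EL35, both lower, where 7.89% of all genes were called and 4.92% were called lower. Among the others the log2 fold changes were -0.33 for HDR (SE 0.22, adjusted p = 0.429), 0.26 for HDS (SE 0.22, adjusted p = 0.575), 0.06 for MDS (SE 0.23, adjusted p = 0.926) and -0.02 for MCT (SE 0.61, adjusted p = 0.993). The median over the 6 genes was -0.18, against -0.005 over all genes tested. Most of the difference in DXR and CMK lay between EL35 and EL36: their means were 27.8 ± 6.33 and 29.0 ± 6.93 FPKM at EL35, 18.8 ± 5.03 and 17.9 ± 3.81 FPKM at EL36, and 17.6 ± 3.23 and 18.5 ± 3.47 FPKM at EL38 (SD, n = 9 each, all with cultivars pooled). For EL36 against EL35, 0 of 6 members were called, where 8.31% of all genes were. An unadjusted p under 0.05 in edgeR was found for 4824 of the 21152 genes tested, and for 2 of 6 members, DXR and CMK. DESeq2 called 0 of 6. With library totals or FPKM in place of TMM-scaled counts, both were called. For EL38 against EL36, 0 of 6 members were called and 0% of all genes, with 1094 genes at an unadjusted p under 0.05 and 0 of the 6 members among them. Library measures also differed between the stages. The summed level of 21 green plastid genes, chlorophyll-binding proteins and Rubisco small subunits, was 320 to 5787 FPKM at EL38 (median 1179) and 1085 to 4906 FPKM at EL35 (median 2041). That of 108 genes of ripening berries (thaumatins, class IV chitinases and wall enzymes) was 19610 to 42810 FPKM at EL38 (median 23500) and 9122 to 24811 FPKM at EL35 (median 15143). The most abundant genes of this second list did not all peak late. LOC100242737 (mean 5672 FPKM) and LOC100253046 (4744 FPKM) were highest in Xiangfei libraries of EL36 and EL38. CHI4D (4036 FPKM), LOC100244917 (2255 FPKM) and LOC100245385 (1003 FPKM) were highest in EL35 libraries. The part of both summed levels in the DXR and CMK differences was not tested.

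**Figure D2:**
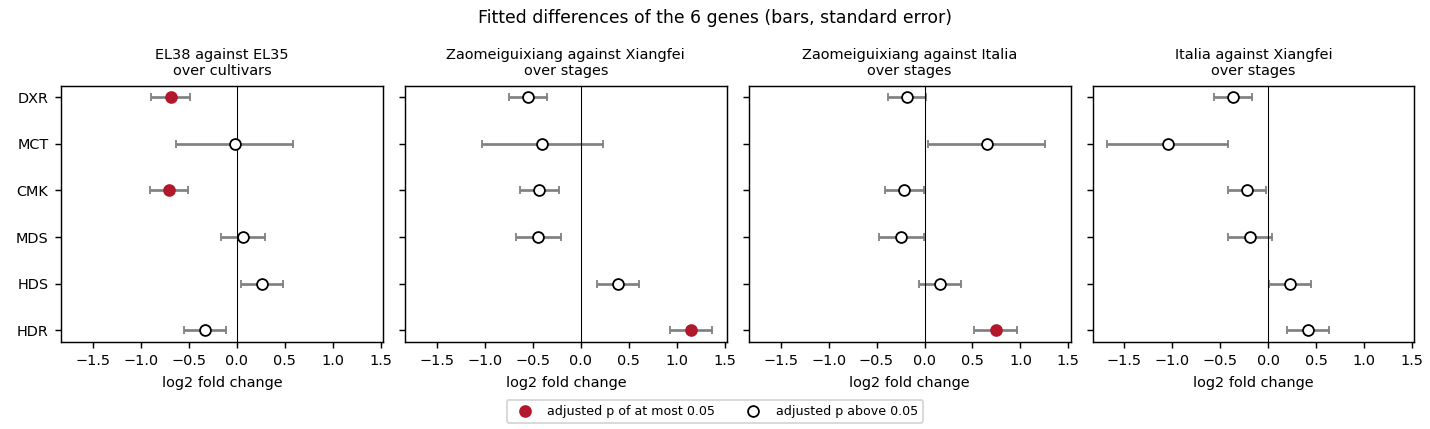
Fitted log2 fold changes of the 6 genes on the x axis, in 4 comparisons over all 27 samples, with standard errors as bars and filled points at an adjusted p of at most 0.05. Filled points stand at -0.69 for DXR and -0.71 for CMK in EL38 against EL35, and at 1.15 and 0.74 for HDR in Zaomeiguixiang against Xiangfei and against Italia.

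HDR, which releases isopentenyl and dimethylallyl diphosphate, was the member that differed between cultivars. In Zaomeiguixiang it had 390, 542 and 448 FPKM at EL35, 231, 508 and 321 FPKM at EL36, and 488, 329 and 458 FPKM at EL38. Italia had 138, 183 and 339 FPKM at EL35, 157, 198 and 242 FPKM at EL36, and 179, 310 and 267 FPKM at EL38. In Xiangfei the values were 250, 165 and 239 FPKM at EL35, 249, 92.5 and 56.3 FPKM at EL36, and 65.3, 73.6 and 240 FPKM at EL38. Of the 9 Zaomeiguixiang samples, 8 lay above all 9 Xiangfei samples and 6 lay above all 9 Italia samples. The mean was 413 ± 102 FPKM in Zaomeiguixiang, 224 ± 69.8 FPKM in Italia and 159 ± 86.8 FPKM in Xiangfei (SD, n = 9 each, stages pooled). For Zaomeiguixiang against Xiangfei over the stages, the log2 fold change was 1.15 (SE 0.22, adjusted p = 0.00094 from edgeR), a 2.23-fold level. It was also past the stricter thresholds of the study, as 1.82% of all genes were, but only narrowly, and was past them in 4 of 27 fits with 1 library left out (Xiangfei EL35 replicate 3, EL36 replicate 1 or EL38 replicate 3, or Italia EL35 replicate 1) and in 7 of 11 other settings. For Zaomeiguixiang against Italia it was 0.74 (SE 0.22, adjusted p = 0.0252 from edgeR), a 1.67-fold level. This second call was lost when Italia EL35 replicate 1 or 2, Zaomeiguixiang EL35 replicate 2 or Zaomeiguixiang EL36 replicate 2 was left out (adjusted p = 0.0536 to 0.0566), and the first stayed at an adjusted p under 0.05 without any 1 of the 27 libraries (adjusted p = 0.00044 to 0.00312). Italia against Xiangfei gave 0.41 (SE 0.22, adjusted p = 0.236) and was not called.

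HDR was thus the 1 of 6 members called for Zaomeiguixiang against Xiangfei, where 13.4% of all genes were called and 4.51% were called higher, and the 1 of 6 called against Italia, where the shares were 12.9% and 6.88%. For Italia against Xiangfei, 0 of 6 were called, where 12.7% of all genes were. Stage by stage, all 3 Zaomeiguixiang replicates exceeded all 3 Xiangfei replicates at EL35 and at EL38, as 9.97% and 21.1% of the genes averaging 1 FPKM or more did, and overlapped them at EL36. They exceeded all Italia replicates at the same stages, as 13.1% and 16.6% of the genes did. HDR made up 60.0% to 76.3% of the summed FPKM of the 6 genes in Zaomeiguixiang (median 70.7%), 45.6% to 68.8% in Italia (median 55.9%) and 31.0% to 59.8% in Xiangfei (median 54.0%). Its ratio to DXR was 14.0 to 28.9 in Zaomeiguixiang, 3.69 to 27.2 in Italia and 3.68 to 13.3 in Xiangfei. These ratios compare genes within a library, so they do not depend on how libraries are scaled. Over the 27 samples, HDR was lower where the summed level of the genes of ripening berries was higher (r = -0.73, and -0.71 within groups). Within groups r was also -0.73 for HDS, and it was -0.42 for MCT, -0.23 for CMK, -0.07 for DXR and 0.44 for MDS. These r values were not computed for all genes. With the green plastid genes HDR had r = -0.61 within groups. The summed level of the genes of ripening berries was 8939 to 23500 FPKM in Zaomeiguixiang (median 15445), 9122 to 36660 FPKM in Italia (median 21375) and 10551 to 54202 FPKM in Xiangfei (median 28673), with 28 to 58 of the 108 genes at 0 in a library. The green plastid genes summed to 647 to 1717 FPKM in Zaomeiguixiang (median 1311), 320 to 4906 FPKM in Italia (median 1085) and 643 to 5787 FPKM in Xiangfei (median 3374). The part of these measures in the HDR difference was not tested. Without 2 of the 3 libraries with seed-protein transcripts, those of Italia EL35 and Xiangfei EL38, HDR was called in the same comparisons. HDR also stayed called in them when the third, Zaomeiguixiang EL35 replicate 3 (25036 FPKM of these transcripts), was left out as well.

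The other members were not called between cultivars. DXR came nearest, with a log2 fold change for Zaomeiguixiang against Xiangfei of -0.55 (SE 0.20, adjusted p = 0.0658 from edgeR). It was called with DESeq2 (adjusted p = 0.0412), without the 2 seed-protein libraries (adjusted p = 0.0287), and without either Xiangfei EL38 replicate 3 or Italia EL35 replicate 3 alone (adjusted p = 0.0422 and 0.0481). On FPKM the size of that difference was smaller, with 15.9 to 31.3 FPKM in Zaomeiguixiang (median 20.8) and 14.0 to 35.6 FPKM in Xiangfei (median 22.3), and the log2 fold change was as small as -0.14. TMM factors were 0.869 to 1.32 in Zaomeiguixiang (median 1.21) and 0.651 to 1.29 in Xiangfei (median 0.812), so counts scaled with them and FPKM set these cultivars apart differently. For the same pair of cultivars CMK gave -0.43 (SE 0.20, adjusted p = 0.147), MDS -0.44 (SE 0.23, adjusted p = 0.211), MCT -0.40 (SE 0.63, adjusted p = 0.713) and HDS 0.39 (SE 0.22, adjusted p = 0.255). Zaomeiguixiang against Italia gave values from -0.24 for MDS to 0.65 for MCT, with DXR at -0.18, CMK at -0.21 and HDS at 0.16 (adjusted p = 0.531 to 0.705). In Italia against Xiangfei the values were -0.37 for DXR, -1.05 for MCT, -0.22 for CMK, -0.19 for MDS and 0.23 for HDS (adjusted p = 0.246 to 0.645). The signs of DXR for Zaomeiguixiang against Italia, of MDS for Italia against Xiangfei and of MCT for Zaomeiguixiang against Xiangfei were opposite on FPKM. The test of whether the course over the stages differed between cultivars called 0 of 6 members (adjusted p = 0.601 to 0.934) and 0.662% of all genes.

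HDS, which opens the cyclic diphosphate, varied widely between replicates. In Zaomeiguixiang it had 61.3, 57.0 and 64.6 FPKM at EL35, 22.2, 67.8 and 43.4 FPKM at EL36, and 83.8, 73.5 and 67.2 FPKM at EL38. Italia had 22.9, 25.8 and 59.3 FPKM at EL35, 41.9, 58.8 and 41.8 FPKM at EL36, and 31.2, 95.1 and 65.6 FPKM at EL38. For Xiangfei they were 53.1, 37.6 and 26.9 FPKM at EL35, 55.5, 33.2 and 16.4 FPKM at EL36, and 16.8, 28.0 and 64.1 FPKM at EL38. All Zaomeiguixiang replicates lay above those of Xiangfei at EL35 and at EL38, as for 9.97% and 21.1% of the genes, and those at EL38 lay above those at EL35 within Zaomeiguixiang, where 14.9% of the genes did so. In the groups, the coefficient of variation of the 3 replicates ran from 6.26% to 68.1% (median 50.0%). The high HDS values of Italia EL35 replicate 3 and Xiangfei EL38 replicate 3 belong to libraries with seed-protein transcripts. Still higher values, in Italia EL38 replicate 2 (95.1 FPKM) and Zaomeiguixiang EL38 replicate 1 (83.8 FPKM), belong to libraries where the seed genes summed to only 337 and 347 FPKM.

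MDS, which forms the cyclic intermediate, varied least of the 6 over the 27 samples and over the group means, but not between replicates, where its median coefficient of variation was 19.2%, against 18.7% for DXR. Its range was 52.8 to 99.6 FPKM in Zaomeiguixiang (median 67.8), 45.8 to 96.6 FPKM in Italia (median 71.3) and 51.9 to 97.2 FPKM in Xiangfei (median 69.9). The group means ran from 60.0 ± 9.15 FPKM in Xiangfei EL36 to 85.5 ± 9.36 FPKM in Italia EL38 (SD, n = 3 each), a 1.42-fold span, whereas the span was 1.83-fold for DXR, 2.06-fold for CMK, 2.14-fold for HDS, 3.64-fold for HDR and 4.58-fold for MCT. The replicates stood apart in Italia EL38 (92.7, 74.9 and 88.9 FPKM) against Italia EL36 (64.0, 66.7 and 71.3 FPKM), as 8.84% of the genes did, MCT among them.

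MCT, the cytidyltransferase, was the lowest member, and its replicates differed most. Its range was 0.85 to 5.80 FPKM in Zaomeiguixiang (median 1.80), 0 to 3.71 FPKM in Italia (median 1.56) and 0.44 to 7.16 FPKM in Xiangfei (median 1.38). The highest value, in Xiangfei EL36 replicate 1, came from 194 expected counts, and no sample had more than 205. In Italia EL35 replicate 1 MCT had 0 counts, which allows up to 3. Its transcript length as estimated in each sample, a mean over its transcripts, ran from 1008 to 1367 bases over the 26 samples with a value, and 2 of its 4 transcripts were detected beyond the annotation. The replicates within a group differed by a coefficient of variation of 7.46% to 115% (median 70.8%). In Xiangfei EL38, for example, the replicates had 23, 22 and 205 expected counts.

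In the 18 comparisons of 2 groups, 0 of 6 members were past the thresholds of the study in any, where the share of all genes was 0.326% for Zaomeiguixiang against Italia at EL36, 0.165% for the same pair at EL38, 0.0174% for Zaomeiguixiang against Xiangfei at EL35 and 0% in the others. Over the 108 member tests the unadjusted p from edgeR was under 0.05 in 10. The share of all genes at that level is not given here, so this count is not read as high or low. The lowest adjusted p was 0.119, and DESeq2 also put 0 members past the thresholds. The comparisons with the lowest p of each gene were as follows. For HDR these were Zaomeiguixiang against Xiangfei at EL38, with a log2 fold change of 1.43 (SE 0.46), and at EL35, with 0.99 (SE 0.40). CMK had -1.04 (SE 0.37) for EL38 against EL35 and -0.96 (SE 0.39) for EL36 against EL35, both in Italia. For DXR they were -0.73 (SE 0.28) for EL38 against EL35 in Zaomeiguixiang and -0.82 (SE 0.41) for EL36 against EL35 in Italia. MCT gave -2.33 (SE 0.88) for Italia against Xiangfei at EL36 and 1.81 (SE 0.78) for EL36 against EL35 in Xiangfei, and both involve Xiangfei EL36, whose replicates had 7.16, 1.34 and 2.72 FPKM. MDS had -0.89 (SE 0.43) and -0.59 (SE 0.30) for Zaomeiguixiang against Xiangfei and against Italia at EL38. HDS had 0.67 (SE 0.34) for EL38 against EL36 in Zaomeiguixiang and 0.75 (SE 0.37) for Zaomeiguixiang against Italia at EL35. With 3 replicates in a group, the adjusted p of these 12 values from edgeR was 0.119 to 0.447.

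Members of neighbouring steps did not all vary together over the samples. HDS and HDR, the last steps, had the closest profiles of the 15 pairs, with a Pearson r of 0.80 over the 27 samples on log2(FPKM + 1) (Spearman's rho 0.81). The value was 0.85 for deviations from the group means, 0.81 for the 9 group means and 0.69 without the 2 samples farthest from the median. Over 15384 other genes the median r was 0.31 with HDS and 0.32 with HDR. More than 1% of those genes were closer to each of the pair than the pair was to each other. DXR and CMK followed with r = 0.57, which was 0.92 over the 9 group means and 0.06 within the groups, and which fell to 0.35 without the 2 samples farthest from the median. Their likeness was thus one of group means and not of replicates, and the EL35 groups of all cultivars ranked highest for both genes. MCT had r = 0.60 with HDS and 0.62 with HDR within the groups, and MDS had r = -0.62 with HDS. The remaining pairs of the 15 lay between -0.33 and 0.22 within the groups. All of these are descriptions, since the samples of a group share their stage and cultivar and all genes of a sample share its library.

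**Figure D3:**
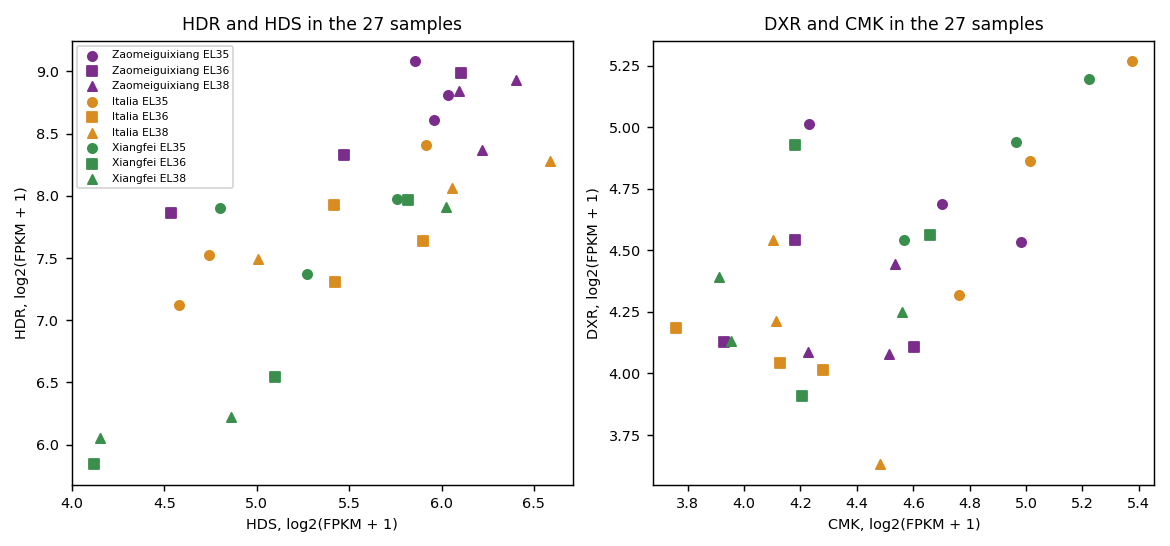
log2(FPKM + 1) of HDR against HDS (left) and of DXR against CMK (right) in the 27 samples, with cultivars in colour and stages by symbol. HDR and HDS rise together over samples of all cultivars (r = 0.80), with Zaomeiguixiang at the top, while DXR and CMK (r = 0.57) are high together in EL35 samples.

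Libraries with more genes above 0 gave higher values of HDS, MCT and HDR than the other libraries of their group. The r within groups between log2(FPKM + 1) and the number of genes listed was 0.79 for HDS, 0.74 for MCT and 0.68 for HDR, against a median of 0.44 over 15390 genes. These values stood at the 94.1, 87.0 and 77.4 percentiles of those genes. It was 0.19 for DXR, -0.09 for CMK and -0.54 for MDS. In 8 of 9 groups the library with the most genes listed was also the one with the highest HDS. The same held in 7 groups for DXR and in 6 each for MCT and HDR. Between cultivars the number was 18355 to 21390 genes in Zaomeiguixiang (median 19739), 17146 to 21423 in Italia (median 19151) and 16745 to 21653 in Xiangfei (median 19456), so the medians differed little. The part of this measure in the differences between replicates was not tested.

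**Figure D4:**
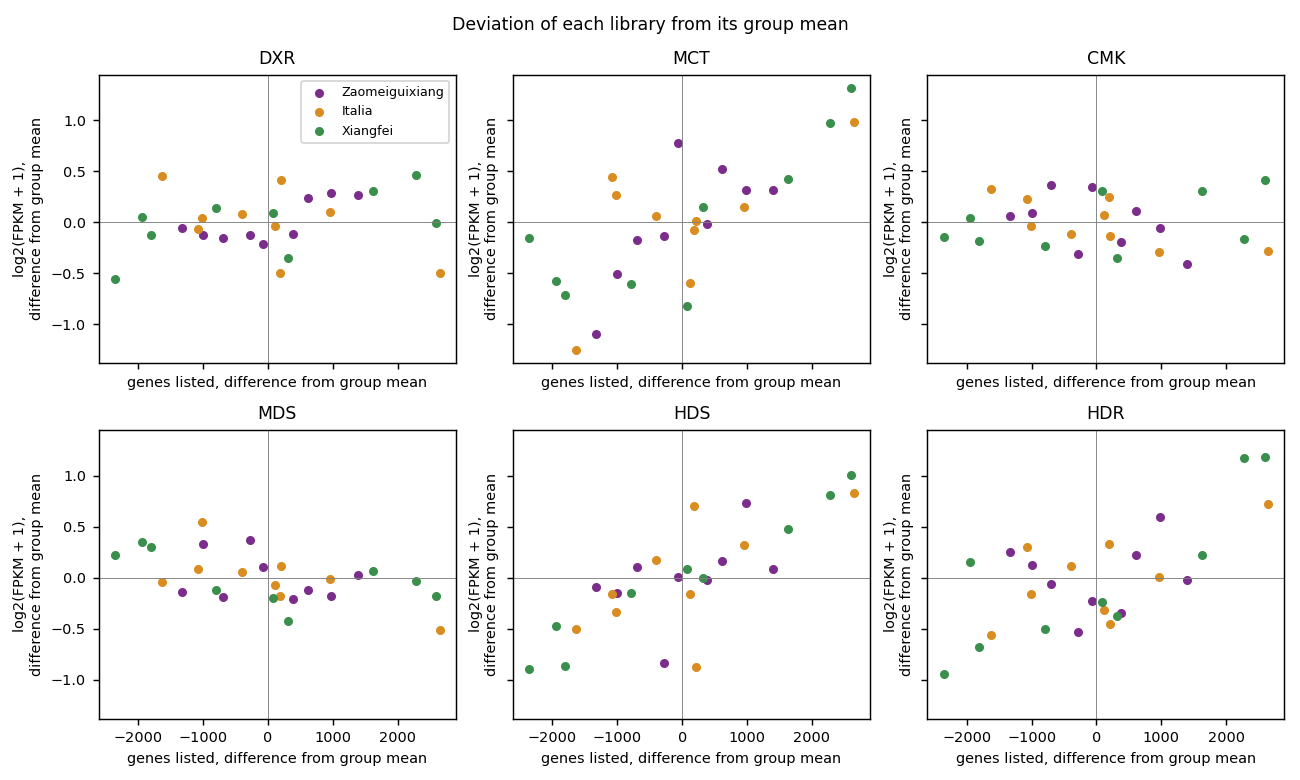
Difference of each library from its group mean, in the number of genes listed (x axis) and in log2(FPKM + 1) of each gene (y axis), with cultivars in colour. HDS (r = 0.79), MCT (r = 0.74) and HDR (r = 0.68) increase with the number of genes listed, MDS (r = -0.54) decreases, and DXR (r = 0.19) and CMK (r = -0.09) show little slope.

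The genes whose profiles over the 27 samples were most like each member were of mixed annotation. HDR was most like LOC100266654, a peptidyl-prolyl isomerase annotated as FKBP62, and LOC100247646, a DEAD-box RNA helicase (r = 0.94 each). HDS was most like LOC100260455, annotated as pre-mRNA-processing factor 17 (r = 0.95), and LOC100263264, annotated as FAM63B (r = 0.94). Each list gives the highest of 15384 other genes, and 1% of these had r above 0.87 for HDR and 0.88 for HDS. The genes nearest to DXR were LOC100263876, an aminocyclopropane carboxylate synthase of ethylene formation, and LOC100262551, a plastid transketolase (r = 0.82 each). CMK was most like LOC100251040, which has no known function in the annotation, and LOC100264496, annotated as a plastid triose phosphate translocator (r = 0.79 each). MDS was nearest to LOC104881081, an adenylate kinase, and LOC100256204, a PRA1 family protein (r = 0.75 each). MCT was nearest to LOC100240918, annotated as charged multivesicular body protein 5 (r = 0.86), and LOC100253705, a subunit of splicing factor 3A (r = 0.84).

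Other genes of the route around these 6 were taken by KEGG number: DXS before them, and isopentenyl diphosphate isomerase (IDI), which interconverts the 5-carbon units, with the geranyl, farnesyl and geranylgeranyl diphosphate synthases (GPPS, FPPS and GGPPS), which join them, after them. Of 17 such genes, 16 were tested. For EL38 against EL35, 3 of 16 were called, all lower, where 7.89% of all genes were called and 4.92% were called lower. The IDI gene LOC100241072 averaged 192 FPKM, and its log2 fold change was -1.48 (SE 0.24, adjusted p = 0.000276 from edgeR). It had 154 to 228 FPKM at EL38 and 400 to 588 FPKM at EL35 in Zaomeiguixiang, 87.6 to 101 and 125 to 350 FPKM in Italia, and 65.2 to 108 and 176 to 319 FPKM in Xiangfei. Like DXR and CMK, it was lower at EL38 than at EL35, and the replicates did not overlap in any cultivar. Of the genes averaging 1 FPKM or more, 10.6% did so in Zaomeiguixiang, 12.3% in Italia and 10.1% in Xiangfei. The share that did so in all 3 cultivars was not counted. The DXS gene LOC100268079, with a mean of 2.40 FPKM, gave -2.21 (SE 0.43, adjusted p = 0.00187). The third was LOC100259617, a GGPPS gene outside the naming rule and named after its values were seen, with a mean of 1.85 FPKM and a difference of -1.48 (SE 0.44, adjusted p = 0.0335). This call was close to the threshold: it was lost without the 2 seed-protein libraries, where the difference was -1.47 (adjusted p = 0.0503), and in 8 of 27 fits with 1 library left out (adjusted p up to 0.0995, with -1.14 without Italia EL35 replicate 1). The other IDI gene, LOC100253066, was the most abundant of the route at 625 FPKM and was called in no comparison.

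For Zaomeiguixiang against Xiangfei, 6 of the 16 genes were called, 1 higher and 5 lower. Of all genes, 13.4% were called there, 4.51% higher and 8.93% lower. The DXS gene LOC100268079 was higher, with a log2 fold change of 1.55 (SE 0.43, adjusted p = 0.0166). Lower were 4 GGPPS genes, at -1.66 for LOC100855133, -3.10 for LOC104878767, -1.55 for LOC100257359 and -2.24 for LOC100257234 (SEs 0.32 to 0.54, adjusted p = 0.000358 to 0.00195), the last outside the naming rule and named after its values were seen. The most abundant DXS gene, LOC100249323, at a mean of 34.8 FPKM, gave -0.72 (SE 0.23, adjusted p = 0.0372), which was not called with library totals (adjusted p = 0.351) or on FPKM (adjusted p = 0.258 to 0.305), nor in 10 of 27 fits with 1 library left out (adjusted p up to 0.0893). HDR, at 1.15, thus stood on the other side of 0 from these 4 GGPPS genes, while LOC100259617 was at 0.10 and was not called. Italia was also lower than Xiangfei in LOC100855133 and LOC104878767, at -1.21 and -2.32 (adjusted p = 0.0177 and 0.00374 from edgeR). LOC100257359 was at -0.93 there and LOC100257234 at 1.10, neither called. Between Zaomeiguixiang and Italia, LOC100855133, LOC104878767 and LOC100257359 were not called (adjusted p = 0.202 to 0.416 from edgeR). Against Italia, 3 of the 16 were called in Zaomeiguixiang, where 12.9% of all genes were. The IDI gene LOC100241072 was higher, at 0.84 (SE 0.24, adjusted p = 0.0206), and LOC100257234 was lower, at -3.33 (SE 0.42, adjusted p = 4.4e-06). The third, named after its values were seen, was a gene detected beyond the annotation with the DXS number (BGI_novel_G000732), which had 0.13 to 1.02 FPKM in Zaomeiguixiang and was not listed in any of the 9 Italia samples. For Italia against Xiangfei, 12.7% of all genes were called, 4.82% higher and 7.9% lower. Of the 16, 6 were called, 2 higher and 4 lower, and no member was. Among them were the DXS genes LOC100249323, at -0.92 (SE 0.23, adjusted p = 0.00863 from edgeR), and LOC100252520, at 0.87 (SE 0.23, adjusted p = 0.0107). Both stayed called in 27 of 27 fits with 1 library left out. The call of a further DXS gene, LOC100268079, at 1.33, was lost in 12 of 27 such fits. The only gene with the geranyl diphosphate synthase number, LOC100232946, averaged 6.50 FPKM and was not called, nor were the FPPS genes LOC100232975 and LOC100247322, at 12.9 and 1.27 FPKM. Several of these enzymes have close copies in the genome, and the authors' counting could have split reads among them, whereas each of the 6 members was the only gene with its KEGG number as the first one given.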

How the data were processed

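Per the methods of the study and the submitters' processing notes, the authors aligned filtered reads to the grapevine genome with HISAT to find unannotated transcripts, added these to the reference transcripts, and quantified all of them by Bowtie2 alignment and RSEM. The deposited expected counts are not normalized, the deposited FPKM values are scaled to transcript length and library, and only genes above 0 are listed, so an unlisted gene was taken as 0. After rounding, the counts were tested in R 4.3.3 by the quasi-likelihood method of edgeR 4.0.16 (TMM, default filter on low counts, Benjamini-Hochberg adjustment), in additive fits of cultivar and stage to 27 samples and in fits of 6 samples for 18 comparisons of 2 groups. Standard errors were derived by dividing the absolute fold change on the log2 scale by the square root of F. In counts simulated for EL38 against EL35 over cultivars on 21152 genes at a dispersion of 0.3, edgeR recovered 11 of 100 genes with a change of 1 on the log2 scale and 94 of 100 with a change of 2. The common dispersion of the fit to the data was higher, at 0.625. The changed genes were drawn only from those averaging 100 counts or more. These shares are therefore not the recovery in these data. Likeness was computed on log2(FPKM + 1). Alternatives were DESeq2 1.42.0, limma 3.58.1 on FPKM, other scalings and filters, a replicate block and left-out libraries. One alternative, without 3 seed-protein libraries, was chosen after seeing the data.

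The members and lists were chosen with earlier results of these data known. All 6 members were named, with fold changes for EL38 against EL35, the cultivar comparisons and the 2 comparisons of 2 groups with the lowest p, along with at most 3 other genes per enzyme with a mean of at least 1 FPKM and the 2 genes most like each member. Another 7 genes that hold such a KEGG number only behind unrelated ones were left out. Labels do not say whether replicates came from separate vines, so p-values measure the spread between these samples. No sequences or coordinates were used here.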

Additional observations from a re-analysis of the deposited data

How the results depend on the processing

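Over 11 other settings (DESeq2, other scalings and filters, limma on FPKM, a replicate block, and without 2 or 3 seed-protein libraries), DXR and CMK stayed called as lower at EL38 than at EL35 (log2 fold change -0.72 to -0.62 and -0.85 to -0.60), and HDR stayed called as higher in Zaomeiguixiang than in Xiangfei (1.15 to 1.57) and Italia (0.74 to 0.90). The count of members called changed in 4 comparisons. For EL36 against EL35 it was 2 with library totals and with each of the 3 limma settings and 1 without 2 or 3 seed-protein libraries, in place of 0. For Zaomeiguixiang against Xiangfei it was 2 with DESeq2 and without 2 or 3 seed-protein libraries, in place of 1. At an adjusted p of at most 0.001 with an absolute log2 fold change of 1 or more, it was 0 for EL38 against EL35, in place of 2, and 0 for Zaomeiguixiang against Italia, in place of 1. When single libraries were left out, it ranged from 0 to 1 for EL36 against EL35, from 0 to 2 for EL38 against EL35, from 1 to 2 for Zaomeiguixiang against Xiangfei and from 0 to 1 for Zaomeiguixiang against Italia.

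Directions turned only for differences that were not called. MCT for EL38 against EL35 was 0.08 with limma on log2(FPKM + 1) with and without a filter, 0.40 with a pseudocount of 0.1, 0.06 without 2 and 0.19 without 3 seed-protein libraries, and ran from -0.24 to 0.29 with a library left out, as MDS did from -0.08 to 0.17. MCT for Zaomeiguixiang against Xiangfei was 0.01, 0.09 and 0.01 in the limma settings. DXR for Zaomeiguixiang against Italia was 0.04 with library totals and 0.06 in the limma settings, and MDS for Italia against Xiangfei was 0.04 and 0.03. Library totals moved the median log2 fold change of all genes for Zaomeiguixiang against Xiangfei by 0.321 and limma on FPKM by up to 0.365, so the share of higher calls there was 954 of 2842 in edgeR with TMM, 1079 of 1788 with library totals and 2745 of 3552 in limma. DESeq2 called 177 genes for EL38 against EL36, and up to 917 genes in 1 of the 18 comparisons of 2 groups at the thresholds of the study, where edgeR called at most 57.

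Replicate numbers did not pair samples: deviations from group means had a mean r of -0.003 for the same number and 0.004 for different ones. With the replicate number as a block, the members called were unchanged in number, 2 for EL38 against EL35 and 1 each for Zaomeiguixiang against Xiangfei and Italia. The 3 replicates in a group and a common dispersion of 0.625 limit what could be called.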

Other observations

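The summed FPKM of the 6 genes was 385 to 711 in Zaomeiguixiang (median 634), 295 to 514 in Italia (median 367) and 177 to 456 in Xiangfei (median 305). HDR exceeded the sum of the other 5 genes in 21 of 27 samples. The coefficient of variation of the 3 replicates was highest in Xiangfei EL38 for CMK, HDS, HDR and MCT (28.2%, 68.1%, 78.0% and 115%). This group holds a library with seed-protein transcripts, and in that library all 4 genes were the highest of the group. Italia EL35 replicate 3 and Zaomeiguixiang EL35 replicate 3 held more of these transcripts. There CMK was the lowest of its group (26.2 and 17.8 FPKM) and HDS the highest (59.3 and 64.6 FPKM). HDR and MCT were the highest only in the Italia library.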
